A study of Homo sapiens with 54 samples.

Results

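The apolipoprotein L genes APOL1, APOL2, APOL3, APOL4, and APOL6 lie in a cluster on human chromosome 22, and these 5 genes of the 31835 in the count table were followed in OCI-Ly1 cells carrying WT or mutant STAT6. Members were chosen by name, as the rows whose identifier maps to one of these symbols. They were proposed with the difference between the STAT6 genotypes already known. Differences between genotypes are therefore given as values. How many members passed the threshold there is stated once, beside the share of all genes that did, as a description and not as a test. Tests were kept for differences among the mutant lines, for changes over time within a genotype, and for whether the genotype difference itself changed over time. The last of these is built from the genotype differences at each time point, so its p-values may not be independent of the choice of members.

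OCI-Ly1, an established lymphoma line of human germinal center type B cells, has its own STAT6 with a variant in the DNA-binding domain, which all groups share. The cells were stably transduced with Flag-tagged STAT6 under a CMV promoter, either STAT6 WT or one of the DNA-binding-domain mutants D419G, D419N, and N421K, jointly called STAT6 MUT. All cells received IL-4 at 10 ng/ml for 20 min, were washed, and were harvested after 2, 4, or 8 h without IL-4, with 9 STAT6 WT libraries and 3 libraries of each mutant line per time point (54 libraries). No unstimulated cells and no cells with an empty vector were analysed here, so the response to IL-4 itself was not measured. Each mutant is a transduced population, and the number of transductions per construct is not given in the sources used here. A difference between constructs and one between transduced populations cannot be told apart.

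Apolipoprotein L proteins share amphipathic helices that associate with membranes and lipids. APOL1 is the secreted member, carried on high-density lipoprotein, and is known for lysing African trypanosomes. Most other members act inside the cell. APOL3 is known for permeabilizing bacteria in the cytosol, and APOL6 for carrying a BH3-like motif and promoting cell death when overexpressed. Several members are known as interferon-inducible genes, and STAT6 is the transcription factor activated by the IL-4 receptor.

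On GRCh38 (GENCODE annotation), the cluster spans chromosome 22 from 35648446 to 36267530, a stretch of 619085 bp. APOL6 (ENSG00000221963) lies at one end, from 35648446 to 35668404 on the plus strand. APOL3 (ENSG00000128284, 36140329 to 36166177), APOL4 (ENSG00000100336, 36189124 to 36204840), and APOL2 (ENSG00000128335, 36226209 to 36239954) follow on the minus strand. APOL1 (ENSG00000100342) closes the cluster from 36253071 to 36267530 on the plus strand. The annotated start of APOL1 lies 13.1 kb from that of APOL2, on the opposite strand. The bodies of the members overlap no other annotated gene of the count table.

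Counts are unique molecular identifiers (UMIs), i.e., the molecules of a gene caught at their 3′ ends in one library. Libraries held between 161518 and 2978715 UMIs with a median of 885259, and 8 libraries were below 0.5 times that median, 6 of them STAT6 MUT and 2 STAT6 WT. Of the 10 B cell markers listed, CD79A, CD79B, MS4A1, PAX5, CD22, BCL6, MME, and CD40 had UMIs in all 54 libraries, and CD38 in 52. The summed level of the 10 markers ranged from 3285 to 4222 CPM (UMIs of a gene per 1000000 UMIs of the library) in STAT6 WT and from 3190 to 4114 CPM in STAT6 MUT. Markers of other cell types summed to 0 to 14.6 CPM, with 251 of their 291 UMIs from PECAM1 and 2 to 12 UMIs each for CD4, CD14, LYZ, CD68, and COL1A1.

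Of the 5 members, 4 had enough counts to be compared. APOL3 had 4725 UMIs over all libraries (median 75 per library), APOL2 had 3500 (median 57), APOL6 had 2347 (median 38), and APOL1 had 732 (median 12). APOL4 was close to absent: it had 17 UMIs in all, in 15 of 54 libraries, with 8 in STAT6 WT and 9 in STAT6 MUT. Pooled over libraries, this was 0.259 CPM in STAT6 WT (exact 95% Poisson interval 0.112 to 0.511) and 0.366 CPM in STAT6 MUT (0.167 to 0.695), intervals that cover counting error only and overlap. APOL4 passed the count filter in none of the comparisons and is not described further. APOL5, a sequence relative that lies between APOL6 and APOL3 and is not a member, had 21 UMIs in STAT6 WT and 13 in STAT6 MUT.

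APOL6 showed the widest separation of the genotypes. Levels are given as CPM scaled by the trimmed mean of M values (TMM). At 2 h, the 9 STAT6 WT libraries ran from 20.4 to 37.4 CPM with a median of 29.4. The D419G libraries held 80.8, 100.2, and 111 CPM, the D419N libraries 58.1, 60.7, and 71.6 CPM, and the N421K libraries 76.4, 88.8, and 90.7 CPM. All 9 STAT6 MUT libraries thus stood above every STAT6 WT library at 2 h, a separation that 0.312% of the 8651 genes tested showed in the same direction.

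At 4 h, STAT6 WT ran from 16.8 to 33.2 CPM (median 27.1) for APOL6. D419G held 75.6, 84.5, and 100.0 CPM, D419N 45.1, 57.0, and 73.5 CPM, and N421K 48.6, 54.7, and 64.8 CPM. The genotypes again did not overlap, as was the case for 0.267% of the genes tested at 4 h. At 8 h, STAT6 WT ran from 23.7 to 31.1 CPM (median 29.8). D419G then held 22.9, 45.0, and 49.6 CPM, D419N 33.1, 34.0, and 52.9 CPM, and N421K 37.7, 40.0, and 60.0 CPM. At this time point, 8 of 9 STAT6 MUT libraries lay above all STAT6 WT libraries, while a D419G library fell below all of them. How many other genes had 8 of 9 libraries above in this way was not counted.

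The mean level of APOL6 in STAT6 MUT went from 82.0 ± 17.5 CPM (SD, n = 9) at 2 h to 67.1 ± 18.0 CPM at 4 h and 41.7 ± 11.4 CPM at 8 h. In STAT6 WT, the means were 30.0 ± 5.19, 26.1 ± 4.68, and 28.4 ± 2.67 CPM (SD, n = 9 each). Ordered by mean, the 12 combinations of line and time ran from D419G at 2 h (97.3 ± 15.3 CPM, n = 3) through D419G at 4 h, N421K at 2 h, D419N at 2 h, D419N at 4 h, N421K at 4 h, and the mutant lines at 8 h down to STAT6 WT, which took the lowest places. Among neighbours in this order, only N421K at 2 h and D419N at 2 h had libraries that did not overlap.

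**Figure D1:**
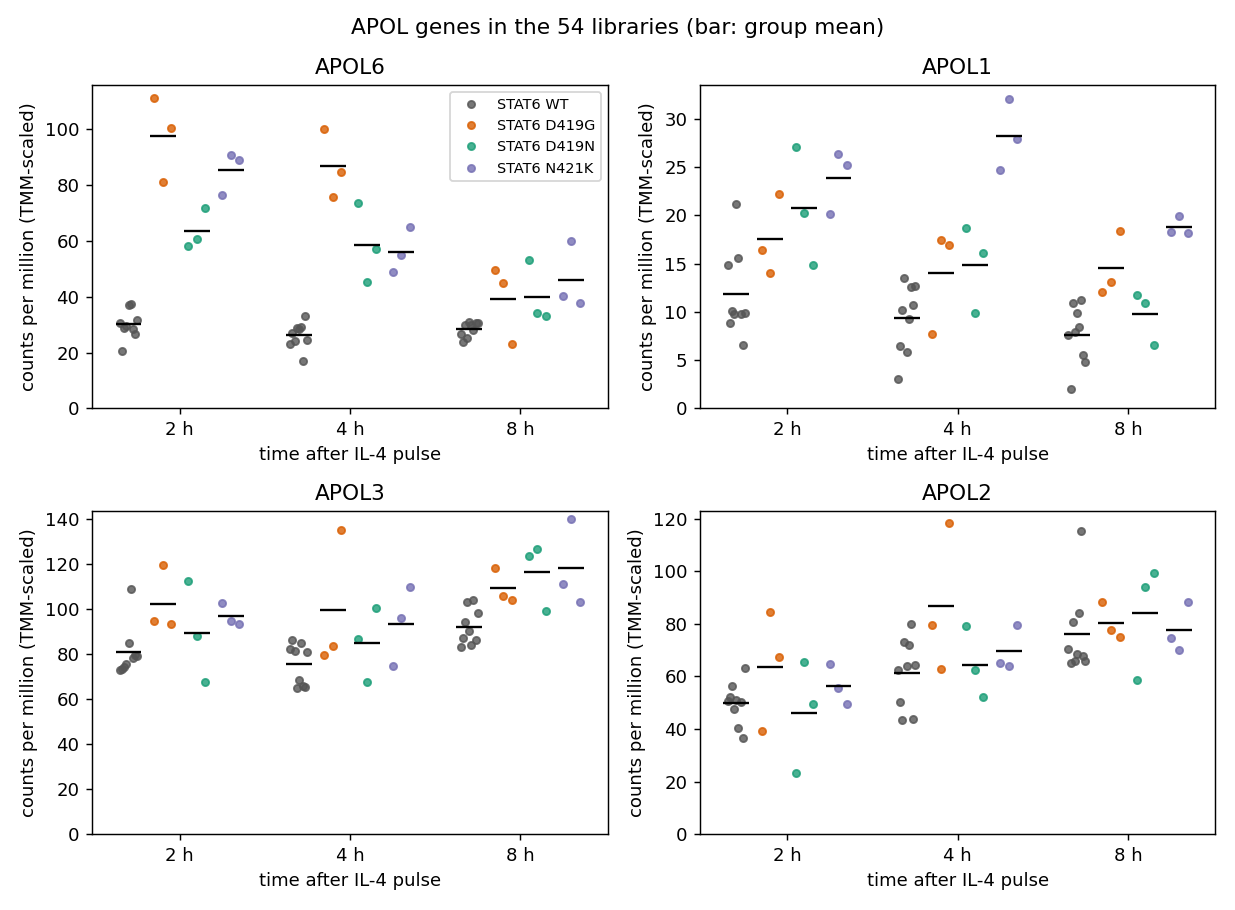
Level of the 4 countable APOL genes in each of the 54 libraries, in TMM-scaled CPM on linear axes from 0, by time after the IL-4 pulse and STAT6 construct. Points are libraries and bars are group means. APOL6 in the mutant lines starts at 58.1 to 111 CPM at 2 h and approaches the STAT6 WT range by 8 h, while APOL2 increases with time in both genotypes.

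The fall of APOL6 in STAT6 MUT was tested within the STAT6 MUT libraries, without reference to STAT6 WT. By edgeR's quasi-likelihood test, APOL6 dropped by 1.10 on the log2 scale from 2 to 8 h (SE 0.119; Benjamini-Hochberg adjusted p = 5.13e-11 over 9370 genes), and 8 of 9 libraries at 8 h lay below all libraries at 2 h. Changes over time were common in these cells, with 34.1% of genes tested called between 2 and 8 h in STAT6 MUT and 17.1% called lower. The share of genes with 8 of 9 libraries at 8 h below all at 2 h was not counted. Over all STAT6 MUT libraries, the log2 change was -0.73 (SE 0.130; edgeR adjusted p = 8.38e-05) from 4 to 8 h and -0.37 (SE 0.107; edgeR adjusted p = 0.0178) from 2 to 4 h, steps for which 11.9% and 8.43% of genes were called. The earlier step lost its call without the N421K line, where it was -0.22 (edgeR adjusted p = 0.467), and without replicates 1, 2, or 3 in turn, with values between -0.42 and -0.32.

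Within STAT6 WT, APOL6 was not called at any step, with a log2 difference of -0.0085 between 2 and 8 h (SE 0.118; 95% interval -0.24 to 0.22; edgeR adjusted p = 0.982). The change of the genotype difference over time was tested directly in a model of the 6 genotype and time groups. On the log2 scale, the genotype difference of APOL6 started from 1.54 at 2 h (SE 0.117), reached 1.23 at 4 h (SE 0.134), and ended with 0.48 at 8 h (SE 0.141). It dropped by 1.06 from 2 to 8 h (SE 0.185), and the joint test of its change over time gave an edgeR adjusted p of 3.23e-04, in a comparison that called 0.957% of 9507 genes. APOL6 was the only member called in it. This call was kept under all 21 alternatives, with adjusted p-values from 1.87e-05 to 0.00961.

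By line, the difference between mean log2 CPM at 8 h and 2 h was -1.33 in D419G, -0.67 in D419N, and -0.89 in N421K, beside -0.064 in STAT6 WT. The direction was thus shared by the 3 mutant lines, but the larger step was not. Mean log2 CPM at 2, 4, and 8 h was 6.62, 6.46, and 5.29 in D419G and 6.03, 5.89, and 5.36 in D419N, with the larger step after 4 h. In N421K it was 6.44, 5.85, and 5.55, with the larger step before 4 h. The difference between these courses was not tested. Time points were laid out in separate rows of the plate, so that time and plate row cannot be told apart within a genotype, whereas the genotype difference is taken between libraries of the same time point.

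A similar course was seen without any scaling between libraries, as the ratio of APOL6 to APOL3 UMIs within each library. APOL3 is not a fixed reference. On the log2 scale, it was 0.26 higher in STAT6 MUT over all time points. From 4 to 8 h, it rose by 0.28 in STAT6 WT and 0.32 in STAT6 MUT, which lowers the ratio at 8 h in both. In STAT6 WT, pooled libraries held 37.1, 35.8, and 31.3 APOL6 UMIs per 100 APOL3 UMIs at 2, 4, and 8 h. In STAT6 MUT, the figures were 90.6, 70.3, and 35.9. At 2 h, single libraries ran from 27.9 to 43.8 in STAT6 WT and from 51.7 to 117 in STAT6 MUT, with no overlap. At 8 h, the ranges were 24.4 to 35.5 and 22.1 to 42.9 and overlapped, whereas in CPM 8 of 9 STAT6 MUT libraries exceeded all STAT6 WT libraries.

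**Figure D2:**
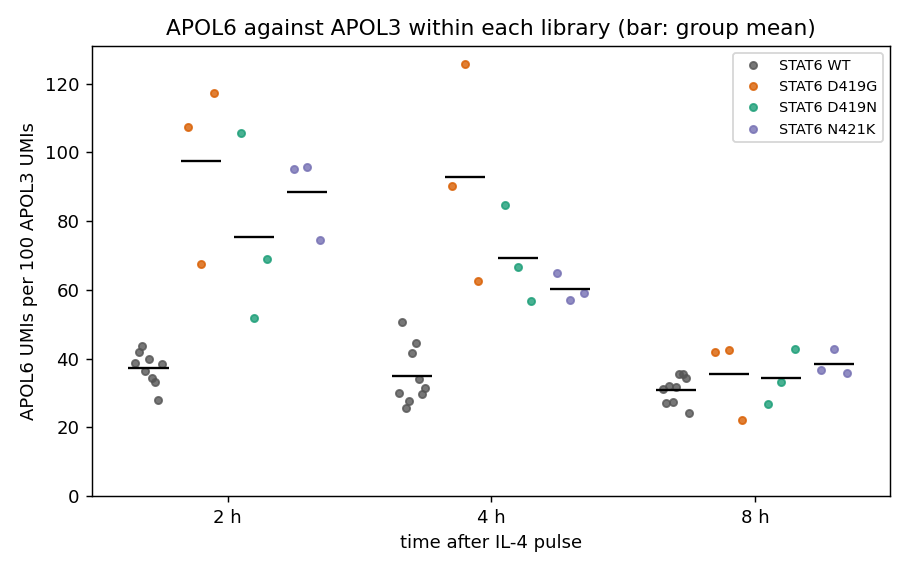
APOL6 UMIs per 100 APOL3 UMIs in each library, by time after the IL-4 pulse and STAT6 construct, on a linear axis from 0. Points are libraries and bars are means of the libraries. The mutant lines lie above the STAT6 WT libraries at 2 and 4 h and overlap with them at 8 h.

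APOL1 also stood higher in STAT6 MUT, but with a different course and a different order of the lines. At 2 h, STAT6 WT libraries ran from 6.63 to 21.2 CPM (median 9.89). D419G held 14.1, 16.4, and 22.2 CPM, D419N 14.9, 20.2, and 27.1 CPM, and N421K 20.2, 25.2, and 26.3 CPM. All 9 STAT6 MUT libraries lay above the STAT6 WT median, and 4 of them exceeded the highest STAT6 WT library.

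At 4 h, STAT6 WT ran from 3.05 to 13.5 CPM (median 10.2) for APOL1. D419G held 7.69, 16.9, and 17.4 CPM, D419N 9.92, 16.1, and 18.7 CPM, and N421K 24.7, 27.9, and 32.0 CPM. At 8 h, STAT6 WT ran from 1.98 to 11.2 CPM (median 7.92), D419G held 12.1, 13.1, and 18.3 CPM, D419N 6.61, 10.9, and 11.8 CPM, and N421K 18.2, 18.3, and 20.0 CPM. At 4 h, the 3 N421K libraries lay above all D419G and D419N libraries, and at 8 h above all of these except the highest D419G library. How many other genes had such an order of the lines was not counted. The counts behind these values were small: the 8 h libraries of D419N rested on 2, 3, and 8 UMIs, and those of N421K on 4, 27, and 27.

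Across time points, APOL1 was 0.76 higher than in STAT6 WT on the log2 scale in D419G (SE 0.174), 0.57 in D419N (SE 0.174), and 1.25 in N421K (SE 0.136). The difference among the 3 lines was called for APOL1 (joint edgeR test, adjusted p = 0.0242), in a comparison that called 2.39% of 9706 genes. This test compares the mutant lines only, but STAT6 WT libraries of the same fit entered the spread, the time terms, and the count filter. Of the 3 pairs of lines, N421K exceeded D419N by 0.68 on the log2 scale (SE 0.174; edgeR adjusted p = 0.0185), where 1.88% of genes were called. N421K minus D419G was 0.49 (SE 0.175; 95% interval 0.15 to 0.83; edgeR adjusted p = 0.194), and D419N minus D419G was -0.19 (SE 0.206; 95% interval -0.59 to 0.22; edgeR adjusted p = 0.857). The joint call did not hold when any of replicates 1, 2, and 3 was left out (adjusted p = 0.283, 0.325, and 0.0530). It was also lost without the count filter (adjusted p = 0.0611), with limma-voom (adjusted p = 0.0868), and with counts summed over the time points (adjusted p = 0.0930).

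APOL6 followed another order of lines than APOL1, with log2 differences from STAT6 WT of 1.37 in D419G (SE 0.116), 1.10 in N421K (SE 0.106), and 0.96 in D419N (SE 0.121). The difference among lines was not called for APOL6 (joint edgeR adjusted p = 0.167). Its largest pair was D419N minus D419G at -0.41 (SE 0.135; 95% interval -0.68 to -0.15; edgeR adjusted p = 0.198), so that a difference between the substitutions at residue D419 was neither called nor bounded near 0. The 2 other pairs were -0.26 for N421K minus D419G (SE 0.124; edgeR adjusted p = 0.408) and 0.15 for N421K minus D419N (SE 0.128; edgeR adjusted p = 0.665).

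For APOL1, the log2 genotype differences at 2, 4, and 8 h were 0.83 (SE 0.190), 1.09 (SE 0.216), and 0.91 (SE 0.231), and their change over time was not called (joint edgeR adjusted p = 0.930). From 2 to 8 h, the genotype difference of APOL1 changed by 0.08, with a 95% interval of -0.49 to 0.65. Within STAT6 MUT, APOL1 fell by 0.46 on the log2 scale from 2 to 8 h (SE 0.175; edgeR adjusted p = 0.0362). This call was lost under 9 of 14 alternatives, with values from -0.62 to -0.35 and adjusted p-values from 0.0330 to 0.330. Among these, the value was -0.35 without replicate 1, -0.37 without replicate 2, -0.49 without D419G, -0.36 without D419N, and -0.57 without N421K. In STAT6 WT, APOL1 had too few counts for the filter. Without the filter its change was -0.50 (SE 0.226; edgeR adjusted p = 0.176).

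**Figure D3:**
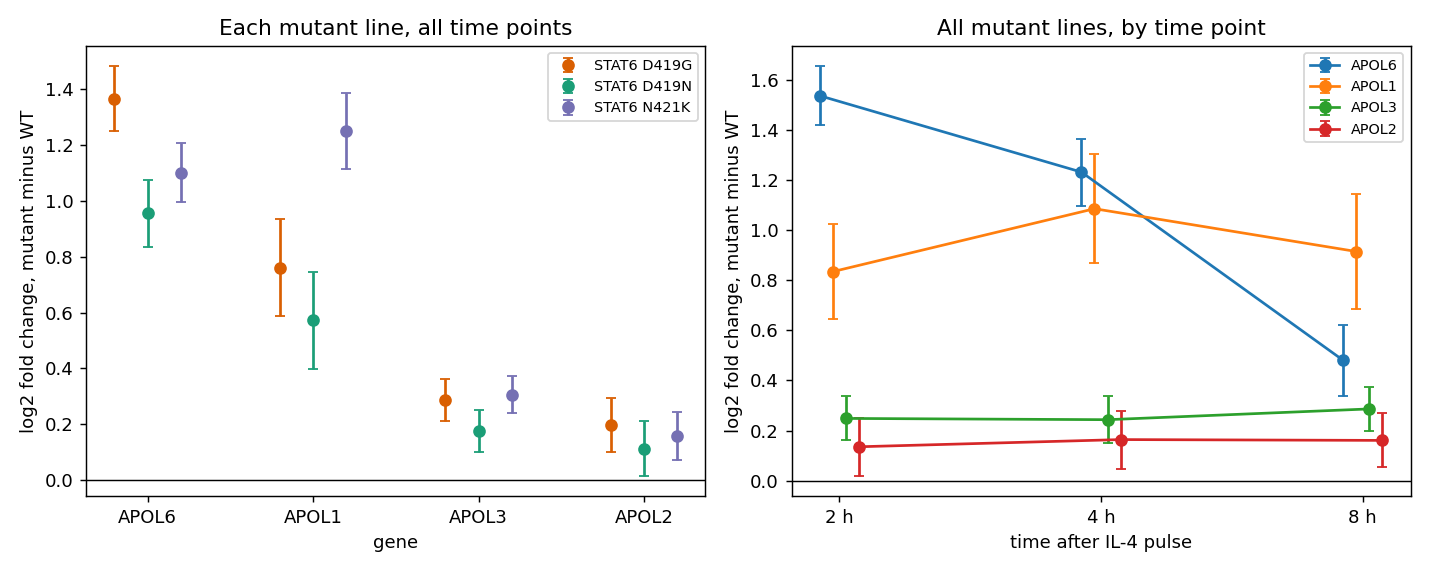
Log2 fold change of mutant against WT STAT6 for 4 APOL genes, per mutant line over all time points (left) and for all mutant lines per time point (right). Points are edgeR estimates and bars are ± 1 SE. N421K has the highest value for APOL1 and D419G for APOL6, and the value of APOL6 goes from 1.54 at 2 h to 0.48 at 8 h.

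APOL3 differed little between genotypes. At 2 h, STAT6 WT libraries ran from 72.8 to 109 CPM with a median of 78.2, and the STAT6 MUT libraries from 67.7 to 119 CPM with a median of 94.5. At 4 h, the ranges were 64.9 to 86.5 CPM (median 80.9) and 67.7 to 135 CPM (median 86.7). At 8 h, they were 83.0 to 104 CPM (median 90.4) and 99.2 to 140 CPM (median 111). The genotypes overlapped at each time point, and of the STAT6 MUT libraries at 2, 4, and 8 h, respectively, 2, 5, and 7 exceeded the highest STAT6 WT library. The log2 difference was 0.26 over all time points (SE 0.0511), with 0.29 in D419G, 0.18 in D419N, and 0.31 in N421K (SE 0.0755, 0.0764, and 0.0669).

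APOL3 rose late in both genotypes. From 4 to 8 h, its log2 change was 0.28 in STAT6 WT (SE 0.0802; edgeR adjusted p = 0.0213) and 0.32 in STAT6 MUT (SE 0.0988; edgeR adjusted p = 0.0231). The share of all genes called for this step was 5.88% in STAT6 WT and 11.9% in STAT6 MUT. The calls, but not the direction, depended on which replicate numbers and lines were kept: the call was lost in STAT6 WT without replicate 2, 5, or 9 (0.25, 0.26, and 0.27), and in STAT6 MUT without replicate 1 or 2 (0.21 and 0.27) and without D419G, D419N, or N421K (0.35, 0.27, and 0.35). The change of its genotype difference over time was not called (joint edgeR adjusted p = 0.991), nor was the difference among lines (joint edgeR adjusted p = 0.680).

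APOL2 had the smallest genotype difference of the 4 members, 0.16 on the log2 scale (SE 0.0647), with 0.20 in D419G, 0.11 in D419N, and 0.16 in N421K (SE 0.0971, 0.0972, and 0.0858). STAT6 WT libraries ran from 36.4 to 63.3 CPM at 2 h (median 50.7), 43.3 to 80.0 CPM at 4 h (median 63.9), and 65.2 to 115 CPM at 8 h (median 68.5). STAT6 MUT libraries ran from 23.3 to 84.3 CPM (median 55.6), 52.0 to 118 CPM (median 65.1), and 58.8 to 99.2 CPM (median 77.8). The genotypes overlapped throughout.

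What APOL2 showed was a rise with time in both genotypes. From 2 to 8 h, APOL2 rose by 0.51 on the log2 scale in STAT6 WT (SE 0.1002; edgeR adjusted p = 5.17e-05), and all 9 libraries at 8 h lay above all 9 at 2 h. In STAT6 MUT, APOL2 rose by 0.55 (SE 0.114; edgeR adjusted p = 1.18e-04), with 4 of 9 libraries at 8 h above all at 2 h. Between 2 and 8 h, 15.2% of genes tested were called higher in STAT6 WT and 17.0% in STAT6 MUT. The share of genes whose 8 h libraries all lay above those of 2 h was not counted. Both calls were kept under all alternatives run, 17 in STAT6 WT and 14 in STAT6 MUT, with values from 0.46 to 0.58 and from 0.43 to 0.65. The single steps were not called. They were 0.26 from 2 to 4 h and 0.25 from 4 to 8 h in STAT6 WT (edgeR adjusted p = 0.0925 and 0.124), and 0.30 and 0.25 in STAT6 MUT (edgeR adjusted p = 0.104 and 0.160). APOL2 and APOL1, the members with the closest starts, thus had changes of opposite sign between 2 and 8 h in STAT6 MUT. Per 100 APOL2 UMIs, pooled STAT6 MUT libraries at 2, 4, and 8 h held 35.7, 29.2, and 18.3 APOL1 UMIs, and pooled STAT6 WT libraries 21.9, 15.1, and 10.8.

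Over all time points, 3 of the 4 members tested were called in the comparison of genotypes (APOL6, APOL1, and APOL3, all higher in STAT6 MUT), where 13.4% of 9261 genes were called and 6.74% were called higher. The median log2 difference of all genes tested was 0.0012. As the members were proposed on this comparison, the count describes the choice and is not read further. By time point, 2 of 4 were called at 2 h (8.59% of genes called), 2 of 4 at 4 h (3.97%), and 3 of 4 at 8 h (1.44%). The 8 h count was 0 to 2 when single replicates were left out, with 3 members tested without replicate 5, 6, 7, 8, or 9. All genes called at 8 h then numbered 53 to 300, against 127 with all replicates. Against STAT6 WT, 3 of 4 were called in D419G (5.38% of genes), 1 of 4 in D419N (2.75%), and 3 of 4 in N421K (13.7%). APOL1 did not pass the count filter in STAT6 WT alone, nor at 8 h without N421K. It thus entered these comparisons largely through the STAT6 MUT libraries, where it is higher, and its calls are counted only as a description.

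Pooled over the mutant lines, other genes of the same stretch of chromosome 22 had smaller genotype differences than APOL6 and APOL1. Within 1 Mb of the ends of the cluster, the table held 41 further genes, of which 13 had enough counts. Their log2 differences between genotypes ran from -0.22 to 0.26 with a median of -0.016, and 2 of 13 were called, HMGXB4 higher and NCF4 lower. RBFOX2, an RNA-binding splicing regulator between APOL6 and APOL3, differed by -0.016 (SE 0.0581). On the far side of APOL1, MYH9, a nonmuscle myosin heavy chain, differed by -0.094 (SE 0.0384), the ribosomal protein pseudogene RPS15AP38, whose reads may be shared with its parent gene, by -0.032 (SE 0.0552), the mitochondrial thioredoxin TXN2 by -0.011 (SE 0.0443), and FOXRED2 by -0.10 (SE 0.0885). Beyond APOL6, the replication helicase subunit MCM5 differed by 0.053 (SE 0.0371), the heme oxygenase HMOX1 by 0.26 (SE 0.103), and TOM1 by -0.047 (SE 0.0824). HMOX1 varied between lines, with 0.59 in D419G (SE 0.136), -0.11 in D419N (SE 0.153), and 0.24 in N421K (SE 0.125), so that its value in D419G was close to that of APOL1 in D419N. None of the 13 genes was called for a change of the genotype difference over time (0 of 13 by edgeR, with 1 of 13 at an unadjusted p under 0.05).

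**Figure D4:**
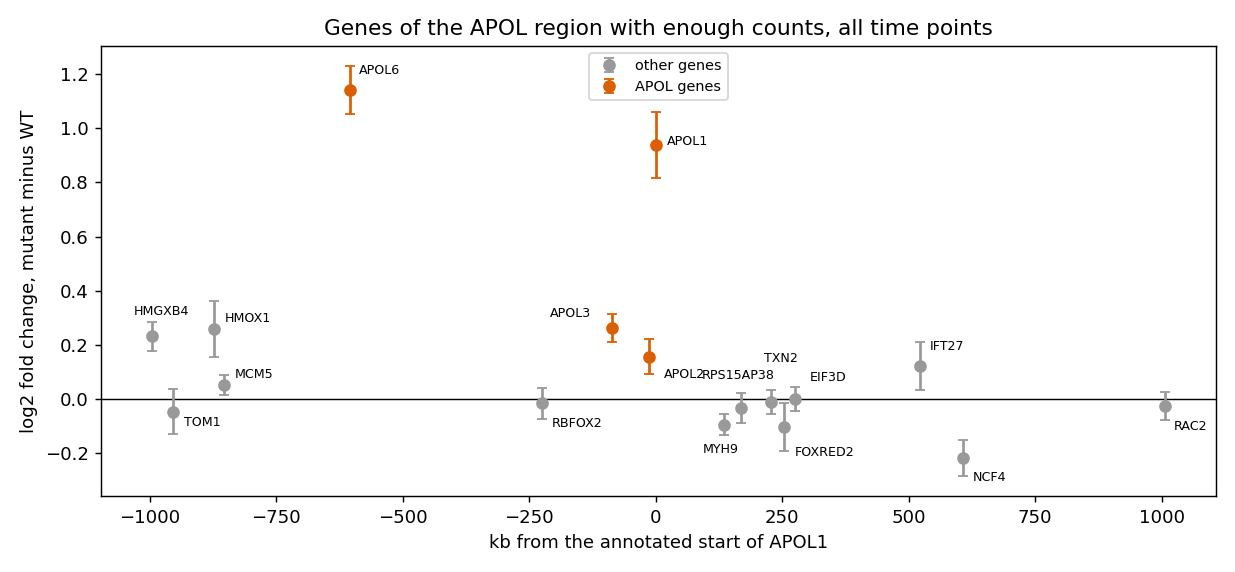
Log2 fold change of mutant against WT STAT6 over all time points for the 4 APOL genes and 13 other genes with enough counts in the surrounding region, by distance in kb of each annotated start from that of APOL1. Bars are ± 1 SE. APOL6 and APOL1 stand at 1.14 and 0.94, and the 13 other genes between -0.22 and 0.26.

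The members were set beside lists of genes of the interferon and IL-4 responses, written with earlier results of these data known. Of a list of 46 type I interferon response genes, 32 were tested and 30 were called higher in STAT6 MUT over all time points, with none called lower and a median log2 difference of 0.88 (0.0012 over all genes). The largest were IFI44 at 3.22 (SE 0.229; mean levels of 18.8 ± 14.4 CPM for STAT6 MUT and 2.48 ± 1.90 CPM for STAT6 WT, SD, n = 27 each), IFI27, an interferon-induced membrane protein, at 2.53 (SE 0.184), and PARP14, an ADP-ribosyltransferase and STAT6 cofactor, at 2.49 (SE 0.149). The smallest was the exonuclease ISG20 at -0.039 (SE 0.0461), which was not called. The values of APOL6 and APOL1 lay near the median of this list and those of APOL3 and APOL2 below it.

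APOL6 differed from this list in its course. The median genotype differences of the list at 2, 4, and 8 h were 0.49, 1.14, and 0.94, while that of APOL6 was highest at 2 h. Between 2 and 8 h, the genotype difference of the 34 listed genes tested changed by -0.55 to 2.46 on the log2 scale, with a median of 0.48, and it went down in 4 of them. None of the 34 genes changed as far downward as APOL6, at -1.06. The median over all genes tested was -0.010. This is a comparison of values, and no test of APOL6 against the list was made.

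Of 36 interferon gamma response genes, 13 were tested, with 3 called higher and 2 lower (median 0.11). Among the largest were the adhesion molecule ICAM1 at 0.64 (SE 0.144) and the transcription factor IRF1 at 0.41 (SE 0.105), and the smallest was the lysosomal reductase IFI30 at -0.40 (SE 0.137). Of 14 IL-4 and STAT6 target genes, 10 were tested, with 5 called higher and 1 lower (median 0.28). The largest were the signaling inhibitor CISH at 1.45 (SE 0.194), and the plasma cell regulators IRF4 at 0.87 (SE 0.138) and XBP1 at 0.64 (SE 0.0640), and the smallest was the IL-4 receptor chain IL4R at -0.19 (SE 0.0557).

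Of 21 genes of interferon and IL-4 receptors, kinases, and their transcription factors, 17 were tested, with 5 called higher and 2 lower (median 0.063). Among the largest were IRF9, a transcription factor of the type I interferon response, at 1.32 (SE 0.172) and the kinase JAK2 at 0.86 (SE 0.144). IL4R, which is also in this list, was the smallest. Of 9 interferon genes, 2 were in the table with 10 UMIs in all, and none was tested. Among 10 housekeeping genes, 2 were called higher and 1 lower (median 0.0046), with PGK1 at 0.23 (SE 0.0401), GAPDH at 0.12 (SE 0.0259), TBP at 0.069 (SE 0.0950, not called), and ACTB at -0.14 (SE 0.0452). Of the 10 B cell markers, 2 were called higher and 4 lower (median -0.099), from BCL6 at 0.40 (SE 0.0417), MME at 0.28 (SE 0.0442), and MS4A1 at 0.064 (SE 0.0351, not called) to CD38 at -0.39 (SE 0.123). Their part in the values of the members was not tested.

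The members did not move as a unit over the 12 combinations of line and time. Pearson's r of mean log2 CPM was 0.68 between APOL6 and APOL1 and 0.62 between APOL2 and APOL3, but 0.25 between APOL6 and APOL3, 0.19 between APOL1 and APOL3, -0.095 between APOL6 and APOL2, and -0.26 between APOL1 and APOL2. These are descriptions over 12 group means that share libraries, time points, and depth. By the same measure, the genes most like APOL6 were VRK3 (r = 0.928), TRIB2 (r = 0.928), and DOCK8, an exchange factor for the GTPase CDC42 (r = 0.925). Those most like APOL1 were ZBTB11 (r = 0.903), AFF2 (r = 0.897), and HMGB2 (r = 0.885). APOL2 was most like the sterol sensor SCAP (r = 0.937), PIK3CB (r = 0.920), and HIRIP3 (r = 0.917), and APOL3 was most like DGCR2 (r = 0.892), COA3 (r = 0.862), and the ubiquitin ligase ARIH2 (r = 0.853). Pearson's r does not reflect the size of a change. From lowest to highest group, mean log2 CPM spanned 2.64 for AFF2, but only 0.16 for HMGB2 and 0.22 for ARIH2, which were nearly flat.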

How the data were processed

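The authors prepared 54 prime-seq libraries, ran the Drop-seq pipeline, and deposited raw UMI counts for each gene and well. Replicates were kept apart. hg38 is named in the submitters' processing notes. The aligner, gene annotation, and strand setting were not given in the sources used here. Of 31835 identifiers, 30959 matched a symbol. Positions came from GENCODE on GRCh38.

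Models were fitted in R 4.3.3 with edgeR 4.0.16 (quasi-likelihood test, TMM, filterByExpr, Benjamini-Hochberg adjustment over all genes tested, threshold 0.05), limma 3.58.1, and DESeq2 1.42.0. Figures were made in Python 3.11.15 using matplotlib 3.10.9. Genotype was fitted with time point in all 54 libraries and within each time point, lines with time point, the interaction in the 6 genotype and time groups, and time within each genotype. Log2 CPM used a prior count of 2. Fits were tested on simulated data. Intervals of log2 differences use the SE and the normal approximation.

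The members and gene lists were chosen with earlier results of these data known. Named genes were the members, APOL5, the 4 nearest countable genes on either side of or inside the cluster, the 3 genes most like each member, and the 3 largest and the smallest of each list. HMGXB4, NCF4, and further marker genes were named after their values were seen. Labels number the libraries as biological replicates but do not say which of them came from separate cultures. The p-values therefore measure the spread between these libraries. RefSeq promoters were matched for 0 of the 5 members. Alternatives covered scaling, filter, tool, replicate block, shallow libraries, single replicates, lines, and, chosen after seeing the data, plate row. Some genes that these rules would name are not reported here.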

Additional observations from a re-analysis of the deposited data

Results flagged for a closer look

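The genotype difference of APOL6 changed over time (joint edgeR test, adjusted p = 3.23e-04). It was 1.54 on the log2 scale at 2 h and 0.48 at 8 h, and the STAT6 MUT libraries above all those of STAT6 WT numbered 9 of 9 and 8 of 9.

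APOL1 differed among the mutant lines (joint edgeR test, adjusted p = 0.0242), with N421K at 23.6 ± 4.78 CPM, D419G at 15.4 ± 4.17 CPM, and D419N at 15.1 ± 6.25 CPM (SD, n = 9 each). The call did not hold in 6 of 19 alternatives.

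A STAT6 WT library stood apart from the others of its group for 2 genes, above the 95% critical value of Dixon's test. The measure was the gap to its nearest neighbour divided by the range of the 9 libraries, both in log2 CPM. For APOL3 at 2 h, the highest library held 109 CPM, from 35 UMIs, with a ratio of 0.624. For APOL2 at 8 h, the highest library held 115 CPM, from 41 UMIs, with a ratio of 0.555. These libraries, with 332236 and 357395 UMIs in all, were the 2 STAT6 WT libraries below 0.5 times the median depth. Each end of 12 groups was examined, and chance flags about 1 in 20 groups.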

How the results depend on the processing

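Of 1115 values recomputed for 60 results on single members, 1018 kept their direction and their side of the threshold, 79 lost a call, 10 gained one, and 8 changed sign. All 8 were the near-zero difference of APOL6 between 2 and 8 h in STAT6 WT, with 0.025 for total counts only, 0.011 without the count filter, 0.0070 with limma-voom, 0.0084 without the shallowest libraries, and 0.0049 to 0.048 without replicates 2, 3, 4, or 9. Over all single replicates left out, this difference ran from -0.11 to 0.048. The following are numbers of members called.

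Without a count filter, 1 member was called at 8 h (3 in the report), 0 among the lines, and 0 for N421K minus D419N. A mean count of at least 10 gave 2 in D419N against STAT6 WT, as did DESeq2 and limma-voom (1 in the report). DESeq2 gave 0 and limma-voom 1 at 8 h, and limma-voom 0 among the lines. Counts summed over the time points gave 0 among the lines and 0 for N421K minus D419N. Without the shallowest libraries, 1 was called at 8 h. Without D419G, 1 was called at 8 h and 1 in STAT6 MUT from 4 to 8 h. Without D419N, 1 was called in STAT6 MUT from 4 to 8 h and 2 from 2 to 8 h (4 in the report). Without N421K, 1 was called at 2 h, 1 at 4 h, 0 at 8 h, and, in STAT6 MUT, 0 from 2 to 4 h and 1 from 4 to 8 h. Without single replicates, the number called was 1 to 2 at 4 h, 0 to 2 at 8 h, 0 to 1 among the lines and for N421K minus D419N, 1 to 3 in D419G and 1 to 2 in D419N against STAT6 WT, 0 to 1 from 4 to 8 h and 1 to 2 from 2 to 8 h in STAT6 WT, and 0 to 0 from 2 to 4 h, 1 to 2 from 4 to 8 h, and 2 to 4 from 2 to 8 h in STAT6 MUT. APOL1 did not pass the count filter at 4 h without replicate 1. At 8 h, it did not pass without N421K or without replicate 5, 6, 7, 8, or 9. Only 3 members were tested in these cases, so their lower counts are not all lost calls. DESeq2 gave no adjusted p for APOL1 at 8 h. Other causes were not tested. With plate row as a term, the change of the APOL6 genotype difference had an edgeR adjusted p of 5.9e-04.

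A replicate block by library number gave 1 member at 2 h, 1 at 4 h, 0 at 8 h, and 0 in STAT6 MUT from 2 to 4 h, and moved the genes called across all time points from 1237 to 607, at 2, 4, and 8 h from 743 to 200, 342 to 61, and 127 to 19, and in D419G and D419N from 522 to 318 and 267 to 146. Numbers above 3 occur only in STAT6 WT, so with this block the genotype differences are taken from libraries numbered up to 3. The block therefore compares fewer STAT6 WT libraries than the report does, and its lower counts cannot be read as a sign of shared cultures. Labels do not say whether libraries with the same number share a culture. Of 54 same-numbered pairs of the same line at different time points, 7 had deviations that correlated above 0.1 (-0.15 to 0.32). In 19 of 108 comparisons, the correlation was highest with the own number. The number to be met by unrelated libraries was not worked out, and these values do not settle whether cultures were shared. Leaving out N421K moved the genes called from 1237 to 586 across time points, from 743 to 291 at 2 h, from 342 to 93 at 4 h, from 127 to 74 at 8 h, and from 91 to 43 for the interaction. Single UMIs limit APOL1 and APOL4.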
